A study of Mus musculus with 8 samples.

Results

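Upper layer cortical neuron genes were examined in the frontal cortex of mice that lack HAR123. The 9 genes are Cux1, Cux2, Rorb, Pou3f2, Mef2c, Rasgrf2, Lmo4, Calb1 and Rgs8. They were taken by symbol from the 55536 genes of the count table as genes known from excitatory neurons of layers 2 to 4, and each symbol matched 1 row. The comparison asks which transcripts of this tissue differ in level when HAR123 is absent. There were 4 libraries of WT mice and 4 of HAR123-KO mice, all aged 8 weeks. In HAR123-KO mice the mouse counterpart of the HAR123 enhancer had been deleted with CRISPR-Cas9 in C57BL/6J embryos. The WT mice were littermates that keep the element, and the mouse strains had been backcrossed to C57BL/6J. The deletion is carried by every cell of the animal, so neurons and all other cells of the tissue lack the element. Whether each library comes from 1 mouse, and whether the HAR123-KO mice go back to 1 founder, is not given in the sources used here. If libraries shared an animal, the p-values below would measure only technical spread.

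The mammalian neocortex is built of layers whose excitatory neurons differ in birth order and in targets. Neurons of layers 2 and 3 are born late and send axons to other cortical areas, also across the corpus callosum, and neurons of layer 4 receive input from the thalamus. Cux1 and Cux2 are homeodomain transcription factors that shape dendrites and synapses of upper layer neurons, Pou3f2 is a POU domain factor for the production and migration of these neurons, and Rorb is a nuclear receptor of layer 4. None of the 9 genes is private to these cells. Mef2c, for example, is also made in inhibitory neurons, microglia and endothelium, and Calb1 in inhibitory and striatal neurons. In bulk tissue, fewer cells of a type and less RNA per cell cannot be told apart.

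The bases before the start sites of Cux2, Rasgrf2 and Rorb are printed first, since these 3 genes had the lowest fold changes of the 9. They come from RefSeq promoters of build GRCm38.p6, which held 8 of the 9 genes with 16 start sites. Bases that an annotated exon covers were left out, and all 4 stretches are read 5′ to 3′ on the minus strand. Capitals mark 3 searched motifs on either strand, the TATA box TATAAA, the CCAAT box, and CATCTG, an E-box read by Neurod factors.
Cux2, first start, chr5:122049852-122050015: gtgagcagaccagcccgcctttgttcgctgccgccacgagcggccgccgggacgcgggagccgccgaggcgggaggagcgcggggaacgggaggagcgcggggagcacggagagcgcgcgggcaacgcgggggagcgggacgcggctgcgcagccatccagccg
Cux2, second start, chr5:122047892-122048075: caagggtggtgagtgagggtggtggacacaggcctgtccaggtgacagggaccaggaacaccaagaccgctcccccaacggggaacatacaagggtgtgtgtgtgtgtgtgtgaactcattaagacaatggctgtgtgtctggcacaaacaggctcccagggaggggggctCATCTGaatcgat
Rasgrf2, chr13:92131829-92132078: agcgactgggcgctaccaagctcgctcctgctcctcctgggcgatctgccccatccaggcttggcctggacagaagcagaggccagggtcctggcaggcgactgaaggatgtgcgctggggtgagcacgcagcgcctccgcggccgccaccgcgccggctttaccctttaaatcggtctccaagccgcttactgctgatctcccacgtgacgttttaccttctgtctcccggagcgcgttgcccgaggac
Rorb, first start, chr19:19111197-19111446: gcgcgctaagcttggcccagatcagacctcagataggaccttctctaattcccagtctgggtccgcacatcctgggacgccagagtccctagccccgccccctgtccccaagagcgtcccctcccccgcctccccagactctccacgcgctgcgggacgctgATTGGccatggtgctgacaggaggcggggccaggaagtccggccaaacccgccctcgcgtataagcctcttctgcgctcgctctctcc

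The 2 Cux2 starts differed in their bases. The 250 bases before the first start held 40 CpG pairs, more than 98.7% of the 32851 promoters in the table, and 80.0% of these bases were G or C. Those before the second start held 3 CpG pairs and 55.2% G or C, and the printed part has a CATCTG, which 11.03% of all promoters have in the same window. A TATAAA also lies before the second start, in bases that an annotated exon covers and that were not printed. Rasgrf2 and the first start of Rorb had 22 and 18 CpG pairs in 250 bases, against a median of 6 over all promoters. The second start of Rorb, which was not printed, had 4 CpG pairs and no CCAAT box. The first has 1 CCAAT box on the strand opposite to the one printed (seen as ATTGG), a motif found in 33.8% of promoters of this length. Rasgrf2 has none of the 3 motifs in this window. Gene counts do not tell which start of Cux2 a read came from.

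The libraries held 13528251 to 17051001 counts. Gm42418, a gene that overlaps ribosomal RNA sequence, took 56.76% to 58.05% of them in WT and 55.09% to 57.37% in HAR123-KO, and nuclear protein-coding genes (Lars2 left out) received 2786320 to 3732172. Each of the 9 genes had between 168 and 3867 raw counts in every library. Values below are normalized counts, which are raw counts divided by a size factor per library (the median ratio to the mean library). Slc17a7, the vesicular glutamate transporter of cortical excitatory neurons, and Camk2a, a kinase of these neurons, had means of 3453 and 10794 normalized counts, so the defining markers of cortical excitatory neurons were present. Libraries of a genotype differed by 1.21 to 1.30 times sampling noise over nuclear protein-coding genes (chi-square per degree of freedom). No 2 libraries agreed within counting noise, so none was treated as a duplicate of another, which does not show that they come from separate animals.

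Of the 9 genes, only Cux2 had a DESeq2 adjusted p under 0.05. It fell by 12.7% in HAR123-KO. The other 8 genes were not called, and their estimates ran from 10.1% lower for Rasgrf2 to 5.07% higher for Lmo4. Over all genes with an adjusted p, 219 of 12203 were called, which is 1.79% (1.04% higher and 0.754% lower), and it was 2.85% among genes whose mean was 100 normalized counts or more. With 9 genes, 1 call is too few to set their share apart from this background. None of the 9 passed the limits the study used in this tissue, which add an absolute log2 fold change over 0.5 and which 0.32% of genes passed. At an unadjusted DESeq2 p under 0.05 there were 2 of 9 genes, Cux2 and Rasgrf2, against 9.01% of all genes. By edgeR and by limma-voom the called gene was again Cux2 alone. Point estimates were below 0 for 7 of the 9 and above 0 for 2, with a median log2 fold change of -0.05, against a median of -0.00123 and 50.5% below 0 over all genes tested.

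**Figure D1:**
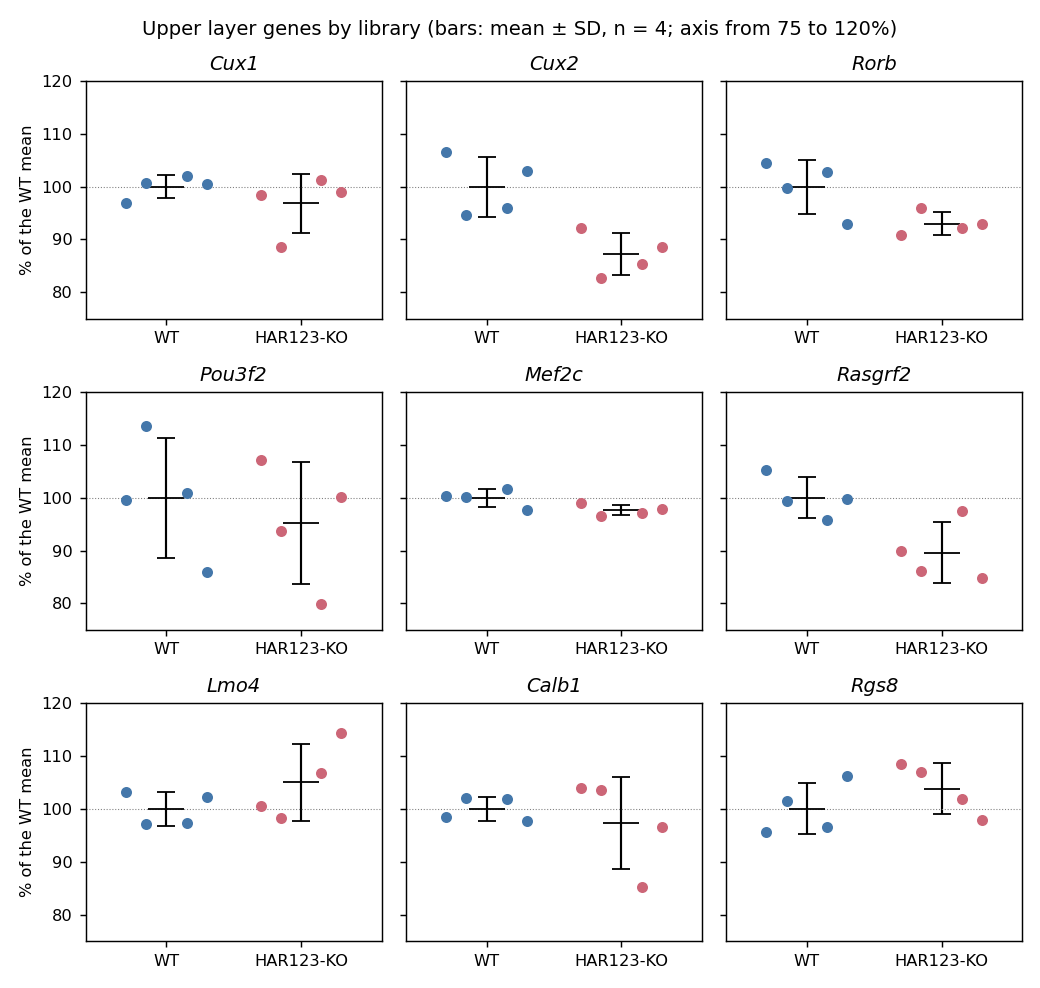
Normalized counts of the 9 genes in each library as a percentage of the WT mean of that gene (vertical axis, 75 to 120%, not from 0), with WT in blue and HAR123-KO in red. Points are the 4 libraries of a genotype from replicate 1 to 4, and black bars are the mean ± SD. The genotypes are apart only for Cux2, where the highest HAR123-KO library lies below the lowest WT library.

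Cux2 (ENSMUSG00000042589, chromosome 5, 121856366 to 122050102, GRCm38, minus strand) had 775, 688, 697 and 749 normalized counts in WT replicates 1 to 4. In HAR123-KO replicates 1 to 4 it had 669.6, 602, 621 and 644. All 4 HAR123-KO libraries lay below the lowest WT library, by a narrow gap between 669.6 and 688. Such a separation was seen in 3.74% of all genes tested in this direction, in 7.85% in either direction, and in 10.1% in either direction where the mean was 100 normalized counts or more. The mean was 727 ± 41.5 for WT against 634 ± 29.4 for HAR123-KO (SD, n = 4). On the log2 scale it differed by -0.20 ± 0.05 (SE, adjusted p = 0.0160 by DESeq2), and its 95% interval ran from 18.8% to 6.19% lower (-18.8% to -6.19%). Spread between libraries of a genotype was 5.71% of the mean in WT and 4.63% in HAR123-KO, close to the 3.82% that counting alone gives.

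The call on Cux2 depended on single libraries, on the scale and on a replicate block. The block ended the call in DESeq2 (adjusted p = 0.99995, and 0.215 with a local dispersion trend) but not in edgeR (0.00351). The call was kept in 4 of 8 fits on 7 libraries, and lost without WT replicate 1 (adjusted p = 0.190), WT replicate 4 (0.132), HAR123-KO replicate 2 (0.132) or HAR123-KO replicate 3 (0.118). The estimates in log2 units then ran from -0.22 to -0.17. Slc17a7 and Camk2a were themselves lower in HAR123-KO, with log2 fold changes of -0.16 ± 0.03 and -0.08 ± 0.02 (SE, DESeq2 adjusted p = 7.85e-06 and 0.00526). They were the 2 called by DESeq2 among 9 genes of excitatory neurons, of which 8 had estimates below 0, with a median of -0.10. The 1 above 0 was Sv2b, at 0.05. When libraries were scaled by these 9 genes in place of all genes, Cux2 was lower by a log2 fold change of -0.12. It was then no longer called (DESeq2 adjusted p = 0.152). This scaling moves every gene up by about the same amount, and the median of all genes tested went from -0.00123 to 0.07. The estimates of Cux1, Mef2c and Calb1 became 0.03, 0.04 and 0.03 through that shift and remained below the median gene. Scaling by library totals also ended the call on Cux2 (log2 fold change -0.16, DESeq2 adjusted p = 0.131), on a scale where the median of all genes tested was 0.04.

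Cux1 (ENSMUSG00000029705, chromosome 5, 136248135 to 136567490), the paralog of Cux2 on the same chromosome, had 731, 759, 769 and 757 normalized counts in WT replicates 1 to 4. The HAR123-KO replicates 1 to 4 had 742, 668, 764 and 747. The ranges overlapped, and replicate 2 was the only HAR123-KO library below all WT libraries. The difference in log2 units was -0.05 ± 0.05 (SE), with an adjusted p of 0.911 in DESeq2. The 95% interval ran from -9.61% to 3.60%. Whether Cux1 and Cux2 differed in their response was not tested, and their intervals overlap. Unlike Cux2, Cux1 is made in many cell types, and its gene also gives rise to a Golgi protein, CASP, whose reads are counted in the same row. An antisense gene, Gm16599, shares 394 exon bases with Cux1 and had 0 counts in all 8 libraries. Without the strand settings of the counting, this does not show that Gm16599 is silent.

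Rorb (ENSMUSG00000036192, chromosome 19, 18930605 to 19111196) had 614, 586, 603 and 546 normalized counts in WT replicates 1 to 4. It had 533, 564, 541 and 546 in HAR123-KO replicates 1 to 4. HAR123-KO replicates 1 and 3 lay below the WT range, replicate 4 was level with WT replicate 4, the lowest WT library, and replicate 2 lay inside the range. In DESeq2 the estimate was -0.11 ± 0.06 log2 units (SE, adjusted p = 0.584), and its 95% interval ran from -13.8% to 0.262%.

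Pou3f2 (ENSMUSG00000095139, chromosome 4, 22482780 to 22488366), also called Brn2, had the fewest counts of the 9 genes. It had 208, 238, 211 and 179.7 normalized counts in WT replicates 1 to 4, and 224, 196, 167 and 209.5 in HAR123-KO replicates 1 to 4. The ranges overlapped almost wholly. DESeq2 put the difference at -0.08 ± 0.10 on the log2 scale (SE, adjusted p = 0.939). Its 95% interval, from -17.1% to 8.45%, was the widest of the 9 and holds a fall of the size estimated for Cux2.

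Mef2c (ENSMUSG00000005583, chromosome 13, 83504034 to 83667080) codes for a MADS box transcription factor that sets synapse numbers in an activity-dependent way. It was the most precisely measured of the 9 genes. The WT replicates 1 to 4 had 3231, 3228, 3276 and 3145 normalized counts, and HAR123-KO replicates 1 to 4 had 3186, 3111, 3129.8 and 3149. The ranges overlapped, with 2 HAR123-KO libraries under the lowest WT library. On the log2 scale it differed by -0.04 ± 0.03 (SE, adjusted p = 0.813 by DESeq2), and the 95% interval from -5.96% to 1.25% does not hold a fall of the size estimated for Cux2.

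**Figure D2:**
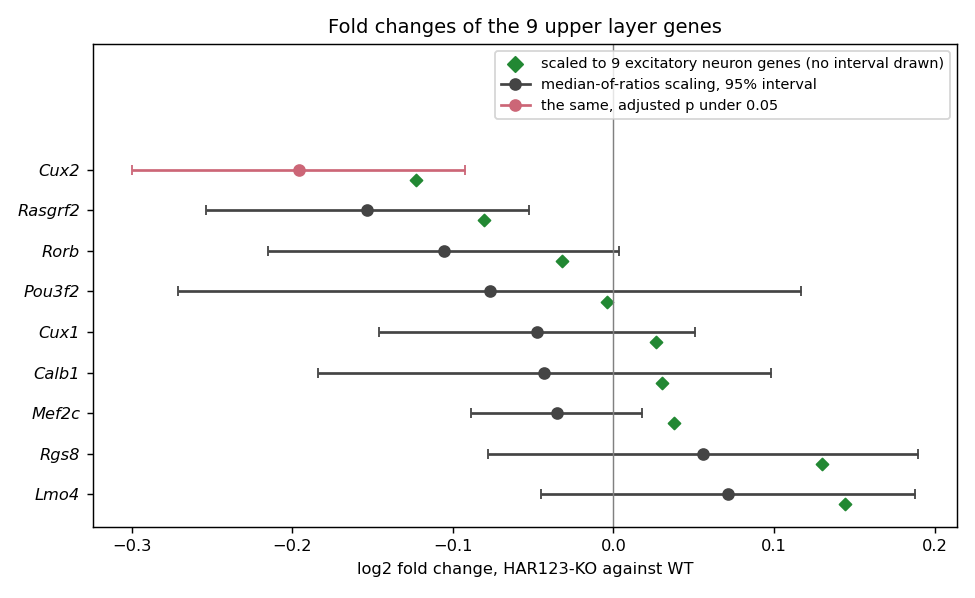
Log2 fold changes of the 9 genes in HAR123-KO against WT (horizontal axis). Circles with bars are the DESeq2 estimate and its 95% interval, red for the called gene Cux2 and grey for the others, and green diamonds are the estimates when libraries are scaled to 9 excitatory neuron genes. The step from circle to diamond is the shift that this scaling gives to all genes, whose median went from -0.00123 to 0.07, and the diamond of Cux2 lies at -0.12.

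Rasgrf2 (ENSMUSG00000021708, chromosome 13, 91880400 to 92131656) codes for a calcium-regulated exchange factor that loads Ras with GTP. It had 823, 777, 749 and 779.9 normalized counts in WT replicates 1 to 4. In HAR123-KO replicates 1 to 4 it had 703, 674, 763 and 664. HAR123-KO replicate 3 lay inside the WT range and the other 3 below it. The means were 782 ± 30.5 and 701 ± 44.7 (SD, n = 4). DESeq2 estimated -0.15 ± 0.05 log2 units (SE, adjusted p = 0.119). The 95% interval ran from -16.1% to -3.57%, and is not adjusted for the number of genes tested. Without HAR123-KO replicate 3, Rasgrf2 was called (log2 fold change -0.20, DESeq2 adjusted p = 0.0355) and Cux2 was not. By edgeR its adjusted p was 0.0528.

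Lmo4, Calb1 and Rgs8 complete the list. Lmo4 (ENSMUSG00000028266, chromosome 3, 144188530 to 144205220) is a LIM-only adaptor that works with the cofactor Ldb1 and is also made in deep layers. It had 520.1, 490.1, 491 and 516 normalized counts in WT replicates 1 to 4 and 507, 495, 539 and 576 in HAR123-KO replicates 1 to 4. The difference in log2 units was 0.07 ± 0.06 (SE), with an adjusted p of 0.848 in DESeq2. Of the HAR123-KO libraries, 2 lay above the WT range and 2 inside it. Its interval, from -3.10% to 13.9%, does not reach a fall of the size estimated for Cux2.

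Calb1 (ENSMUSG00000028222, chromosome 4, 15881264 to 15908064) codes for the calcium buffer calbindin. It had 354, 367, 366 and 351 normalized counts in WT replicates 1 to 4, and 374, 372, 306 and 347 in HAR123-KO replicates 1 to 4. The HAR123-KO values spread to both sides of the WT range, with an SD of 31.4 against 8.20 in WT. In DESeq2 the estimate was -0.04 ± 0.07 log2 units (SE, adjusted p = 0.964). Its 95% interval ran from -12.0% to 7.04%. Without HAR123-KO replicate 3, the lowest library, the estimate was 0.02.

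Rgs8 (ENSMUSG00000042671, chromosome 1, 153653025 to 153700323) codes for a protein that speeds the switching off of G proteins. It had 350.1, 372, 353 and 388 normalized counts in WT replicates 1 to 4. In HAR123-KO replicates 1 to 4 it had 397, 392, 372 and 358. Of the HAR123-KO libraries, 2 lay above the WT range and the others inside it. DESeq2 put the difference at 0.06 ± 0.07 on the log2 scale (SE, adjusted p = 0.927), with a 95% interval from -5.25% to 14.1%.

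Levels of different genes were compared as normalized counts per kb of annotated exon. Mef2c was highest in WT at 205 ± 3.48 per kb (SD, n = 4). Lmo4 followed at 143 ± 4.54, then Rasgrf2 at 84.7 ± 3.30. Calb1 and Cux2, at 74.1 ± 1.69 and 72.1 ± 4.11 per kb, had ranges that overlapped, and Rorb came next at 53.0 ± 2.70. Rgs8, Cux1 and Pou3f2 had 37.95 ± 1.84, 37.7 ± 0.823 and 37.4 ± 4.25 per kb and could not be ordered. In HAR123-KO the order of the means was the same, with Cux2 at 62.9 ± 2.91 per kb. There the ranges of Rasgrf2 and Calb1 also overlapped. The exons of Cux1 summed to 20024 bases over all annotated transcripts, so its level per kb is lower than that of the transcripts in use.

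**Figure D3:**
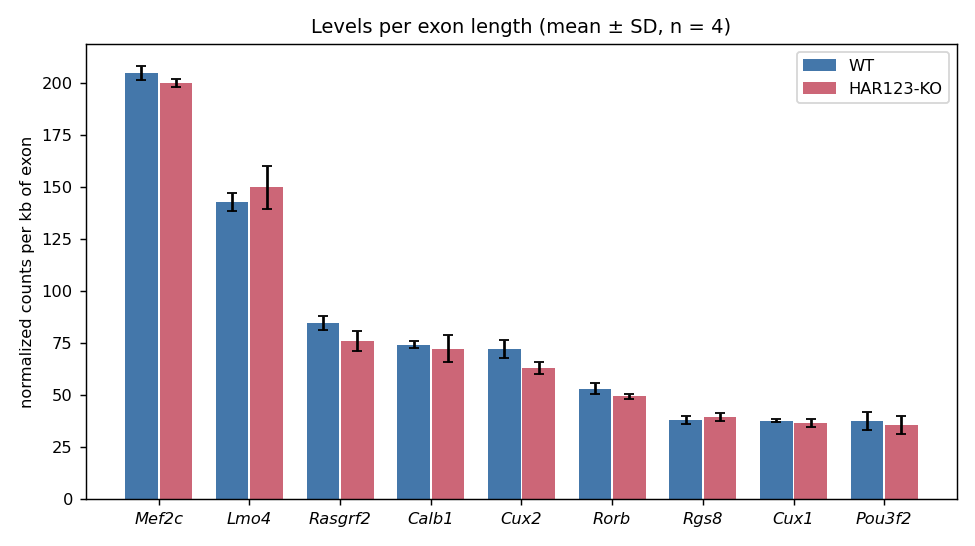
Levels of the 9 genes as normalized counts per kb of exon (vertical axis, from 0), in WT (blue) and HAR123-KO (red). Bars are means of 4 libraries and error bars are SD. Mef2c stands highest at 205 per kb in WT, and Rgs8, Cux1 and Pou3f2 lie together near 38.

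Among 20 family relatives and partners of the 9 genes, 15 had an adjusted p and 1 was called, against 1.79% of all genes tested. Lmo3, a LIM-only relative of Lmo4, rose in HAR123-KO from 320 ± 15.2 to 388 ± 17.6 normalized counts (SD, n = 4). WT replicates 1 to 4 had 307, 341, 310.1 and 321, and HAR123-KO replicates 1 to 4 had 403, 377, 402 and 369, without overlap. On the log2 scale it differed by 0.28 ± 0.07 (SE, adjusted p = 0.00632 by DESeq2). The call was lost without HAR123-KO replicate 3 (adjusted p = 0.0678), and with a replicate block in DESeq2 under either dispersion trend. Rasgrf1, the paralog of Rasgrf2, was at -0.00142 ± 0.04 log2 units (SE, DESeq2 adjusted p = 0.998). Pou3f3, which shares its role with Pou3f2, had 0.04 ± 0.06 (SE, DESeq2 adjusted p = 0.959). Mef2d had -0.05 ± 0.05 (SE, DESeq2 adjusted p = 0.852) and Mef2a 0.12 ± 0.05 (adjusted p = 0.396), both paralogs of Mef2c. Rgs4, a relative of Rgs8, had -0.09 ± 0.03 (SE, DESeq2 adjusted p = 0.221) with libraries that did not overlap. Of the 15, 11 had estimates above 0, with a median of 0.06. With the scaling by excitatory neuron genes 3 relatives were called, all higher, namely Lmo3, Rora (log2 fold change 0.19, DESeq2 adjusted p = 0.0306) and Mef2a (0.20, adjusted p = 0.00886). On that scale 567 genes were called higher and 31 lower in all, with a median of 0.07 over all genes tested, and Rora and Mef2a were called there through the common shift.

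A further 20 genes known from upper layers gave 17 with an adjusted p and 0 called by DESeq2. At an unadjusted p under 0.05 there were 3, against 9.01% of all genes tested. By edgeR 1 was called, of 331 genes called in all, and by limma-voom 0 of 290. Of the 17, 14 had estimates below 0 and 3 above, where 50.5% of all genes tested were below 0. Their median was -0.04 on the log2 scale, close to the -0.05 of the 9 genes, and that of the 9 excitatory neuron genes was -0.10. The gene edgeR called was Nectin3, an adhesion molecule. Its WT replicates 1 to 4 had 286, 233, 213 and 229 normalized counts, and HAR123-KO replicates 1 to 4 had 211, 199, 188 and 186. The 2 ranges lay just apart, and WT replicate 1 stood highest. Nectin3 differed by -0.29 ± 0.09 log2 units (SE), with adjusted p = 0.100 in DESeq2 and 0.0369 in edgeR. Satb1, Lamp5 and Plxnd1, among the most abundant of these genes, had log2 fold changes of -0.02, -0.02 and -0.04 and were not called.

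**Figure D4:**
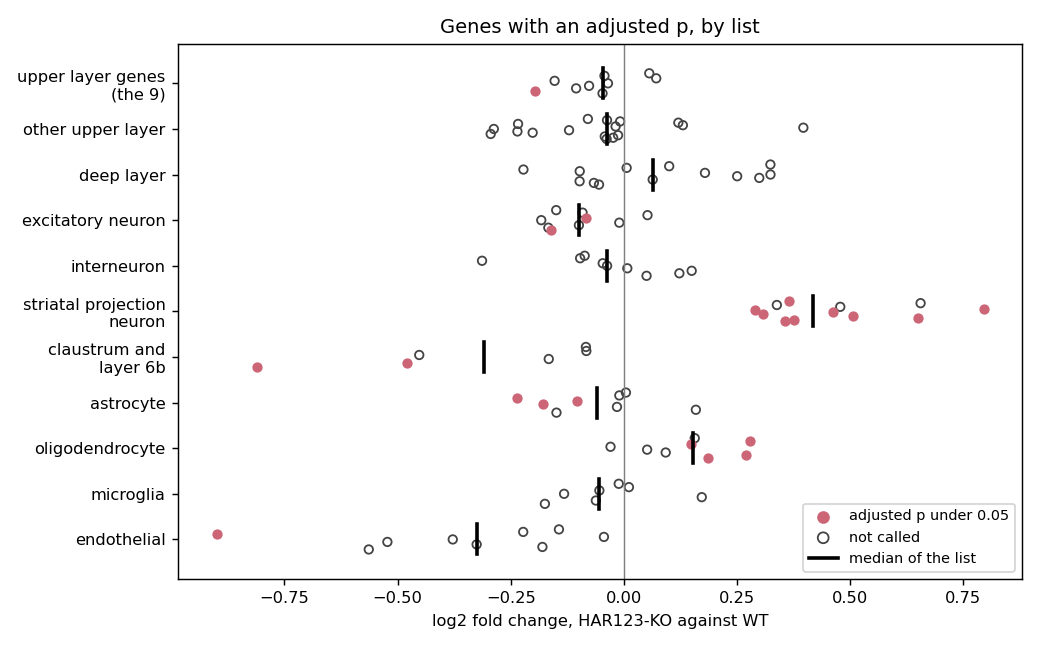
Log2 fold changes in HAR123-KO against WT (horizontal axis) of genes with an adjusted p, 1 row of points per gene list. Red points were called by DESeq2, open points were not, and black bars are medians. The 9 upper layer genes have a median of -0.05 and 1 called gene, and the striatal projection neuron genes lie farthest to the right with a median of 0.42. Choroid plexus genes, of which 2 had an adjusted p, are not drawn.

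Markers of several other cell types also differed between the genotypes, and their part in the values above was not tested. Over all genes tested, DESeq2 called 1.79%, of which 1.04% were higher and 0.754% lower. The summed level of 12 genes of striatal projection neurons was 5013 to 5112 normalized counts in WT and 6643 to 6764 in HAR123-KO, 9 of the 12 were called higher, and none of them was at 0. For the 9 excitatory neuron genes it was 18532 to 18785 in WT and 17456 to 17663 in HAR123-KO, with 2 called lower by DESeq2, while limma-voom called 2 and edgeR 1. Of 8 claustrum and layer 6b genes, 7 had a row and 2 were called lower, and their summed level was 752 to 852 in WT and 571 to 621 in HAR123-KO. The 8 oligodendrocyte genes summed to 15157 to 15668 in WT and 17260 to 17568 in HAR123-KO (4 called higher), and the 8 astrocyte genes to 23193 to 23923 and 21580 to 22187 (3 called lower). Slc1a2 made up most of the astrocyte sum, and the median of that list was -0.06 on the log2 scale, with Gfap at 0.16 (adjusted p = 0.544 in DESeq2) and Aldoc and S100b at -0.01 and 0.00434. In the same way Camk2a led the excitatory sum. Endothelial genes summed to 516 to 566 and 411 to 455 (9 genes, 1 called lower), and 12 choroid plexus genes to 95.7 to 114 and 776 to 796, mostly from Ttr. Of the choroid plexus genes only 2 were abundant enough for an adjusted p in DESeq2 and both were called higher, and edgeR and limma-voom called 5 each. Interneuron genes (9 genes) summed to 2549 to 2685 in WT and 2641 to 2742 in HAR123-KO. Microglia genes (8 genes) summed to 1031 to 1129 and 1007 to 1068. Both sums overlapped between the genotypes, and none of these genes was called by DESeq2, edgeR or limma-voom. At an unadjusted p under 0.05 there were 1 and 0, against 9.01% of all genes tested. The interneuron gene Gad2 did not overlap (538 to 576 in WT, 591 to 630 in HAR123-KO), as for 7.85% of all genes tested. It was called with the scaling by excitatory neuron genes, where 567 genes in all were called higher and 31 lower.

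Deep layer genes were set beside the upper layer genes. Of 13, DESeq2 called 0 and 4 had an unadjusted p under 0.05, which 9.01% of all genes tested had. By edgeR 3 were called, of 331 genes called in all, and by limma-voom 2 of 290. With the scaling by excitatory neuron genes 4 were called (Etv1, Syt6, Bcl11b and Foxp2), of 598 genes called in all. That scaling moves every gene up, and 567 genes were called higher and 31 lower. As reported, these 4 had log2 fold changes of 0.25, 0.32, 0.10 and 0.32. Fezf2, Tbr1, Sox5, Ntsr1 and Rprm went the other way, at -0.06, -0.07, -0.10, -0.10 and -0.22. Estimates of the 13 genes were above 0 for 8 and below 0 for 5. Their median was 0.06, against -0.05 for the 9 upper layer genes and -0.10 for the 9 excitatory neuron genes. The difference between these medians was not tested. The summed level of the 9 upper layer genes was 7411 to 7605 normalized counts in WT and 7074 to 7337 in HAR123-KO, a sum of which Mef2c made up the largest part.

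**Figure D5:**
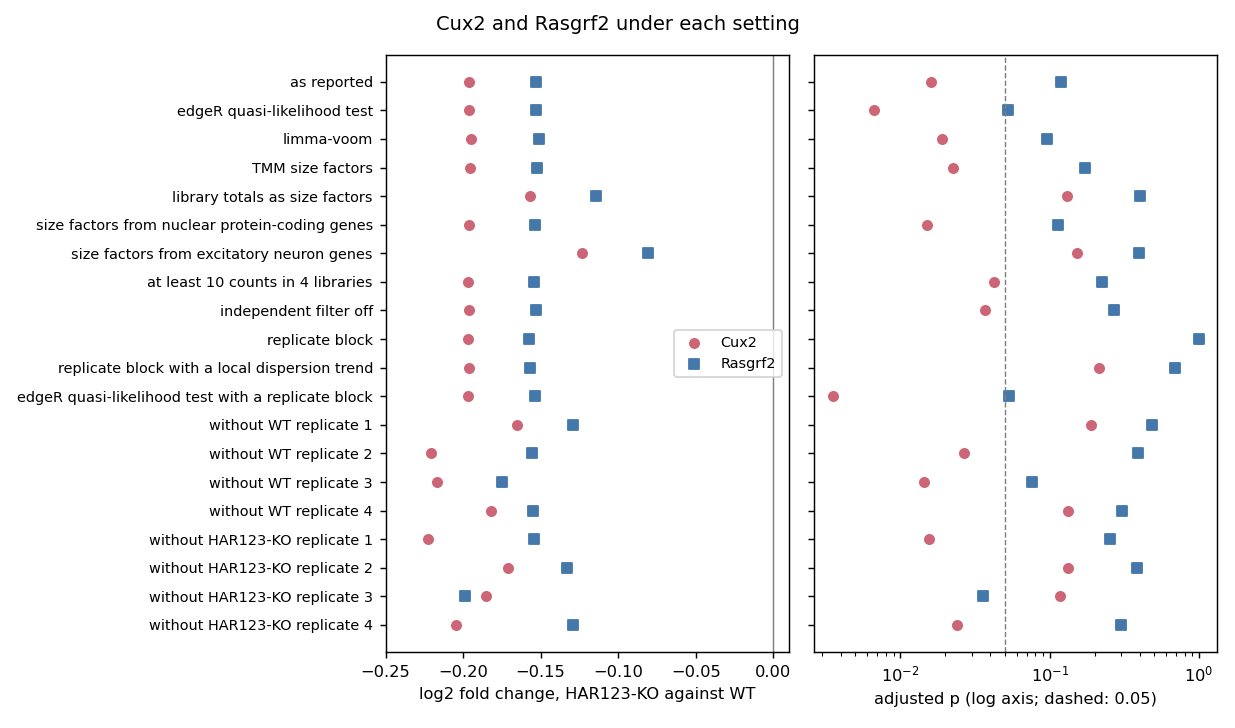
Log2 fold change (left) and adjusted p (right, log axis, dashed line at 0.05) of Cux2 (red circles) and Rasgrf2 (blue squares) under the reported fit and each alternative setting. Cux2 stays between -0.22 and -0.12 and crosses the dashed line in 8 of 19 alternatives, and Rasgrf2 lies left of it only without HAR123-KO replicate 3.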

How the data were processed

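RNA-seq libraries were made from total RNA of frontal cortex after ribosomal RNA depletion with a directional kit, and read as paired ends. The authors aligned reads with STAR 2.5.2b to GRCm38 (Ensembl 96), summed exon reads per gene with featureCounts, and deposited raw read counts for 55536 genes. The settings for strand and for reads with several matches are not given in the sources used here. All identifiers matched GENCODE M21, which supplied symbols, positions and exon overlaps. There were 0 unused columns of per-sample values. Exon lengths are those deposited in the table.

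Counts were tested with the Wald test of DESeq2 1.42.0 (R 4.3.3) on all genes, scaled by median of ratios, with a single term for genotype, a two-sided p, Benjamini-Hochberg adjustment and an independent filter tuned to 0.05, which kept genes with a mean over 21.2 normalized counts. Called means an adjusted p under 0.05. All 9 genes passed the filter. DESeq2 fell back to a local dispersion trend. Alternatives were edgeR 4.0.16 (quasi-likelihood), limma-voom (limma 3.58.1), 4 other scalings, no independent filter, at least 10 counts in 4 libraries, a replicate block, and leaving out each library. Of the scalings, 1 used TMM factors, 1 the library totals, 1 nuclear protein-coding genes and 1 the 9 excitatory neuron genes. The block with a local trend or in edgeR was chosen after seeing the data. All tests were tried on simulated data first. The genes and gene lists were chosen with earlier results of these data known. Genes were named if they belonged to the 9, were called among the relatives or other upper layer genes, or were among the 4 most abundant of these lists. Of the genes this rule names, 1 is not reported here. Nectin3, Rora, Pou3f3, Sv2b, Gad2, the deep layer genes and the astrocyte and choroid plexus genes were named after their values were seen. Intervals are 95% Wald intervals, and PCR copies were not identified, so counting error understates the error of a library.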

Additional observations from a re-analysis of the deposited data

How the results depend on the processing

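Of 171 values of the 9 genes under alternatives, 162 kept their side of the threshold. For Cux2 all 19 kept the direction and 11 the call. Calls among the 9 went from 1 to 0 with library totals as size factors (Cux2 adjusted p = 0.131), with excitatory neuron genes (0.152) and with the replicate block (0.99995, and 0.215 with a local trend), and ranged from 0 to 1 when a library was left out. Adding the fold limit of 0.5 left 0 of the 9 and 39 genes in all. All genes called were 331 by edgeR, 598 with excitatory neuron genes, and 22 with the block or 85 with the block and a local trend, against 219 as reported. The block in edgeR kept Cux2 (adjusted p = 0.00351, 326 genes in all). Same-numbered libraries did not deviate together (correlations from -0.03 to 0.03, 2 of 8 closest to their own number). What the numbers stand for is not given in the sources used here. This check cannot exclude that they mark litters or batches. DESeq2 used a parametric dispersion trend with the block and a local one as reported. Without a library, all genes called ranged from 148 to 190. Genes called split 127 higher to 92 lower as reported, 166 to 44 with library totals and 567 to 31 with excitatory neuron genes.

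Other upper layer genes called were 1 by edgeR with or without the block, and 0 to 1 without a library. Relatives called were 3 with excitatory neuron genes, 0 with the replicate block under either trend, and 0 to 1 without a library. The median of the 9 was 0.03 with excitatory neuron genes, where that of all genes tested was 0.07, and ranged from -0.08 to -0.03 without a library. Estimates of genes that were not called changed sign without HAR123-KO replicate 3 in Pou3f2 and Calb1. The sign changes of Cux1, Mef2c and Calb1 under the excitatory neuron scaling, and of Mef2c with library totals, follow from shifts common to all genes. Depth limits the less abundant genes most: counting alone gives 6.97% per library for Pou3f2 and 1.76% for Mef2c.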

Other observations

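Over the 8 libraries, Tnrc18 (Pearson r = 0.984), Atp2b4 (0.965) and Cars (0.959) had log2 levels most like those of Cux2, out of 6589 genes whose mean was 100 normalized counts or more. The libraries share depth and genotype, so these are descriptions. With genotype means removed, r was 0.966, 0.881 and 0.860. On the log2 scale the 3 genes differed between genotypes by -0.10, -0.12 and -0.24, and none was called.

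In 0 of 18 groups of 4 values (9 genes in 2 genotypes) did a library stand apart beyond Dixon's critical value, where chance gives 0.9.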
